A study of Mus musculus with 8 samples.

Results

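Expression of the heat shock proteins and DnaJ chaperones was compared between mammary tumours that expressed polyQ-huntingtin and tumours that expressed wild-type huntingtin. Genes were taken as members when their symbol began with Dnaj, Hspa, Hspb, Hsph or Hsp90, or was Hspd1 or Hspe1, and when a probe set of the array carried that symbol alone. By this rule 58 of the 14860 genes with a probe set of their own were members, namely 4 Dnaja, 11 Dnajb and 23 Dnajc genes, 10 Hspa, 6 Hspb, 2 Hsp90 and 1 Hsph gene, and Hspbap1, which encodes a protein that binds a small heat shock protein. Dnajc2 had more than 1 such probe set and was represented by the brighter. Other genes of the family, among them Hspa8, Hspd1, Hspe1, Hsp90ab1, Hspb1 and Dnajb6, were not analysed here.

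RNA came from 4 MMTV-PyVT/HdhQ111/Q111 tumours, with both huntingtin alleles encoding a stretch of 111 glutamines, and from 4 MMTV-PyVT/HdhQ7/Q7 tumours, with both encoding 7. In both groups the polyoma middle T oncogene was driven by the MMTV promoter, which is active in mammary epithelium. All mice were FVB/CD1 and untreated, each tumour was hybridised to its own Affymetrix Mouse Exon 1.0 ST array, and a log2 signal was deposited for each of 23332 probe sets. Tumours were collected at a set time after detection and those with polyQ-huntingtin had appeared earlier, so that age and genotype cannot be told apart. The labels do not say that each tumour came from its own mouse, and the p-values cover only the spread among the tumours at hand. In whole tumours, fewer cells of a type and less RNA per cell cannot be told apart.

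The tumours expressed 11 luminal epithelial markers, whose mean log2 signal was 11.29 to 11.43 in MMTV-PyVT/HdhQ111/Q111 tumours and 11.22 to 11.47 in MMTV-PyVT/HdhQ7/Q7 tumours. The mean of 12 fibroblast markers was 8.96 to 9.51 in MMTV-PyVT/HdhQ111/Q111 tumours, against 8.18 to 8.83 in MMTV-PyVT/HdhQ7/Q7 tumours. That of 11 smooth muscle and myoepithelial markers was 7.75 to 8.63 in MMTV-PyVT/HdhQ111/Q111 tumours, against 7.62 to 7.84 in MMTV-PyVT/HdhQ7/Q7 tumours. Of 12 macrophage markers, 5 had an unadjusted p under 0.05, all higher in the tumours with polyQ-huntingtin, and of 13 T and NK cell markers 5 did, all lower, while 0 of 14 endothelial markers did. The mean of 17 skeletal and cardiac muscle markers was 8.67 and 8.79 in MMTV-PyVT/HdhQ111/Q111 tumours 3 and 4, against 6.20 to 7.38 in the 6 other tumours of both genotypes. Htt itself gave a log2 signal of 8.92, 8.79, 8.89 and 8.65 in MMTV-PyVT/HdhQ111/Q111 tumours, against 9.43, 9.60, 9.59 and 9.45 in MMTV-PyVT/HdhQ7/Q7 tumours, a log2 fold change of -0.70 (limma, adjusted p 0.07001).

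Heat shock proteins are molecular chaperones. HSP70 proteins bind exposed hydrophobic stretches of unfolded proteins in a cycle driven by ATP. DnaJ proteins, also called J proteins, deliver substrates to HSP70 and stimulate its ATPase, and HSP110 proteins release the spent nucleotide. HSP90 acts later, on kinases, steroid receptors and other clients close to their folded state. Small heat shock proteins hold unfolding proteins without using ATP. Many of these genes are induced through heat shock factor 1, and those of the endoplasmic reticulum (ER) through the unfolded protein response. Expanded polyglutamine proteins aggregate, and several HSP70 and J proteins reduce that aggregation in cell and animal models.

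After adjustment over all probe sets, no member could be called different between the genotypes. Of the 58 members, 1 (1.72%) passed a fold change of 1.5 with an unadjusted p of at most 0.05, close to the 1.36% of all probe sets. This was Dnajc22, which was lower in MMTV-PyVT/HdhQ111/Q111 tumours. It was also the only member with an unadjusted p under 0.05, where 7.88% of all probe sets lay. None of the members had an adjusted p under 0.05 (limma, Benjamini-Hochberg over all probe sets), a level that 0.0129% of all probe sets reached. In 1 member, Hspb3, the values of the genotypes did not overlap, which was so in 4.43% of all probe sets.

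The log2 fold changes of the members ran between -0.69 and 0.40, and their size had a median of 0.070, against 0.093 over all probe sets. Higher means in MMTV-PyVT/HdhQ111/Q111 tumours were found for 30 members and lower means for 28, with a median of 0.008 against 0.021 over all probe sets, but this split moved with the scaling, to 23 against 35 after quantile normalization and 17 against 41 after centring of the arrays. The 95% interval lay within a 1.5-fold change in either direction for 51 members (87.9%), as it did for 80% of all probe sets. The other 7 members were Dnajc22, Dnajc2, Dnajc6, Dnaja1, Hspa1a, Hsph1 and Hspb6, and for all but Dnajc22 the interval also held 0. The precision is limited by the 4 arrays per genotype and by the spread among tumours, with standard errors from 0.06 for Dnajb12 to 0.49 for Hspb6.

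**Figure D1:**
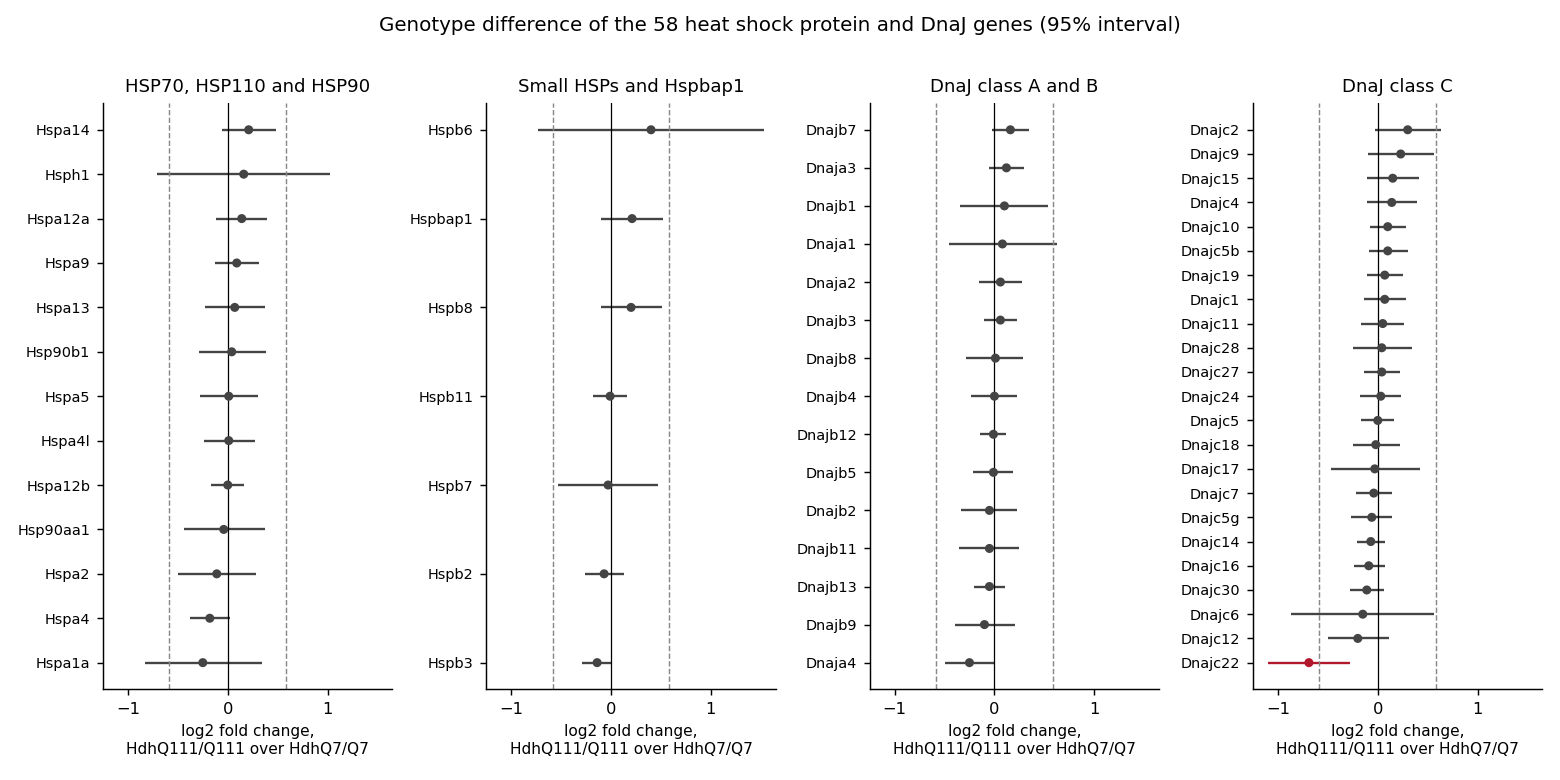
Log2 fold change of each of the 58 members, MMTV-PyVT/HdhQ111/Q111 over MMTV-PyVT/HdhQ7/Q7 (points), with its 95% interval (lines), by subfamily. Dashed lines mark a 1.5-fold change in either direction, and red marks an unadjusted p under 0.05. The interval of Dnajc22 is the only one that does not reach 0, and those of Hspb6, Hsph1, Dnajc6 and Hspa1a are the widest of the rest.

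These counts depended on single tumours, and the shares over all probe sets moved as well. Without MMTV-PyVT/HdhQ111/Q111 tumour 1, 4 members had an unadjusted p under 0.05 (Dnajc22, Dnajc2, Dnajc9 and Hspa14), against 7.83% of all probe sets. There were 2 without tumour 2 of that genotype (9.07% of all probe sets), 3 without tumour 3 (6%) and 3 without tumour 4 (7.43%). Without MMTV-PyVT/HdhQ7/Q7 tumour 3 there were 4 (Dnajc22, Dnaja4, Dnajb7 and Hspa4), against 7.39% of all probe sets, and without tumour 4 there were 2 (8.39%). The count of members without overlap reached 5 without MMTV-PyVT/HdhQ7/Q7 tumour 3, where 8.02% of all probe sets did not overlap. It was 4 without MMTV-PyVT/HdhQ111/Q111 tumour 3 (6.4% of all probe sets) or MMTV-PyVT/HdhQ7/Q7 tumour 2 (7.59%), and 2 without MMTV-PyVT/HdhQ111/Q111 tumour 2 (9.07%) or tumour 4 (8.1%). Dnajc22 was the single member past both thresholds whichever tumour was left out.

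Dnajc22 encodes a J protein that spans the membrane. Its Drosophila counterpart, wurst, is required for clathrin-mediated endocytosis. The log2 signal was 6.50, 6.59, 6.58 and 7.28 in MMTV-PyVT/HdhQ111/Q111 tumours, against 7.60, 7.37, 7.19 and 7.53 in MMTV-PyVT/HdhQ7/Q7 tumours. Tumours 1 to 3 with polyQ-huntingtin lay close together below all others, whereas tumour 4 lay between MMTV-PyVT/HdhQ7/Q7 tumours 3 and 2. The mean was 6.74 ± 0.36 in MMTV-PyVT/HdhQ111/Q111 and 7.42 ± 0.18 in MMTV-PyVT/HdhQ7/Q7 tumours (SD, n = 4 each). This is a log2 fold change of -0.69 ± 0.18 (SE), with a 95% interval of -1.10 to -0.28 and an adjusted p of 0.4764 (limma). An exact permutation test over the 70 ways to divide the tumours gave p = 0.05714 (two-sided), where the smallest possible value is 0.02857. Without MMTV-PyVT/HdhQ111/Q111 tumour 4 the log2 fold change was -0.87, and it was -0.61 to -0.77 when any other tumour was left out. Most fibroblast, adipocyte and smooth muscle markers had their higher mean in the same genotype in which Dnajc22 was lower, and their part in the Dnajc22 signal was not tested. Without both tumours high in muscle markers the log2 fold change was -0.88. That pair includes tumour 4, the highest of its genotype, so leaving the pair out had to lower the value.

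Hspb3, a small heat shock protein of muscle, gave a weak signal. It was 5.08, 5.23, 5.28 and 5.21 in MMTV-PyVT/HdhQ111/Q111 tumours, against 5.35, 5.36, 5.35 and 5.33 in MMTV-PyVT/HdhQ7/Q7 tumours. All MMTV-PyVT/HdhQ111/Q111 values lay below all MMTV-PyVT/HdhQ7/Q7 values, yet the log2 fold change was only -0.14, with a 95% interval of -0.29 to 0.01 (adjusted p 0.6339, limma). The exact permutation p was 0.02857, the smallest that the design allows. The probe set of Hspb3 was among the dimmest 40% of the array, as were those of 14 members in all. Besides Hspb3 these were Hsp90aa1, Hspa12a, Hspb2, Hspb7, Hspb11, Dnajb3, Dnajb7, Dnajb8, Dnajb13, Dnajc5b, Dnajc5g, Dnajc17 and Dnajc27, and 44 members passed that filter.

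**Figure D2:**
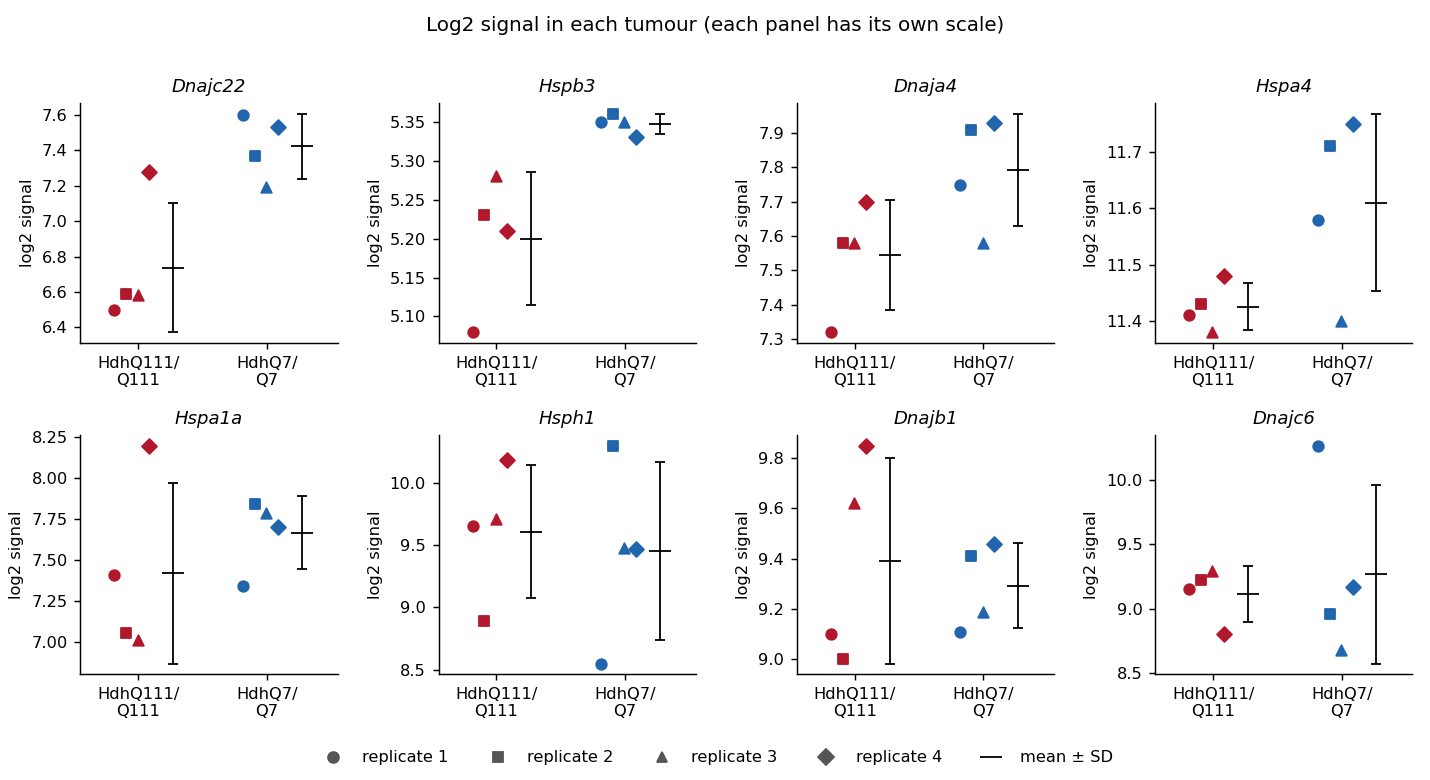
Log2 signal of 8 members in each of the 4 MMTV-PyVT/HdhQ111/Q111 (red) and 4 MMTV-PyVT/HdhQ7/Q7 (blue) tumours, with mean and SD in black and a marker shape for each replicate number, which was not taken to pair tumours. The vertical scale differs between panels. Hspb3 values do not overlap, Dnajc22 overlaps through MMTV-PyVT/HdhQ111/Q111 tumour 4, and Hsph1 and Dnajc6 vary most within MMTV-PyVT/HdhQ7/Q7 tumours.

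Among the HSP70 genes, the cytosolic stress-inducible Hspa1a varied from tumour to tumour. Its log2 signal was 7.41, 7.05, 7.01 and 8.20 in MMTV-PyVT/HdhQ111/Q111 tumours, against 7.34, 7.84, 7.79 and 7.70 in MMTV-PyVT/HdhQ7/Q7 tumours. The highest value of all was thus in the same MMTV-PyVT/HdhQ111/Q111 tumour 4 in which Dnajc22 was high, and the lowest in tumours 2 and 3 of that genotype. Hspa1a had a log2 fold change of -0.25, with a 95% interval of -0.83 to 0.34 (adjusted p 0.8229, limma). The value rested on single tumours. It was -0.51 without MMTV-PyVT/HdhQ111/Q111 tumour 4 (unadjusted p 0.01128, adjusted 0.5592, limma), where the unadjusted p over all tumours was 0.359. It was -0.11 without tumour 3 and -0.13 without tumour 2 of that genotype, and -0.43 without tumours 3 and 4. As tumour 4 held the highest value, leaving it out had to lower the log2 fold change and narrow the spread of its genotype. Hspa1a has a near-identical neighbour, Hspa1b, whose transcripts the probes may not tell apart. The promoter of Hspa1a in RefSeq, 250 bases before to 50 after the start, holds a match to the heat shock element GAANNTTC, shown in capitals (GRCm38.p6, chr17:34972107-34972406, minus strand).

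Hspa1a: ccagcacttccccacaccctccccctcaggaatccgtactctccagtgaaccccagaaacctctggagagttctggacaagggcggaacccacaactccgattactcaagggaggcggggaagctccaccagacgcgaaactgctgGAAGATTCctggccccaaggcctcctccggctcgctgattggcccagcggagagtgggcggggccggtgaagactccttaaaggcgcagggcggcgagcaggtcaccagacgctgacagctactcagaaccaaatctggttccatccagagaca

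Hsph1, the inducible HSP110 that exchanges nucleotide on HSP70, had the second widest range of all members, 1.75 on the log2 scale. Its signal was 9.65, 8.89, 9.71 and 10.18 in MMTV-PyVT/HdhQ111/Q111 tumours, against 8.55, 10.30, 9.48 and 9.47 in MMTV-PyVT/HdhQ7/Q7 tumours. The lowest and the highest tumour were both MMTV-PyVT/HdhQ7/Q7. The log2 fold change was 0.16, with a 95% interval of -0.71 to 1.02, and it turned to -0.14 without MMTV-PyVT/HdhQ7/Q7 tumour 1 and to -0.03 without MMTV-PyVT/HdhQ111/Q111 tumour 4. Of 61 RefSeq promoters found for 46 members, those of Hsph1 were the only ones with the longer heat shock element, in which GAA and TTC units alternate over 3 units, and 0.603% of all 32851 promoters hold it. The match, in capitals, lies just after the annotated start (GRCm38.p6, chr5:149636266-149636565, minus strand).

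Hsph1: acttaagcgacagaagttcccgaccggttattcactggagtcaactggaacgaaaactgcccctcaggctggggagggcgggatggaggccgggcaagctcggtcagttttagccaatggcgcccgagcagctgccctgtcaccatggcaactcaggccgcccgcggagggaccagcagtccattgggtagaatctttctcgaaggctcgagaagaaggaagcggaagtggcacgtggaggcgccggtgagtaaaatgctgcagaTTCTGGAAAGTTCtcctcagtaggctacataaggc

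GAANNTTC, which reads the same on both strands, was found in 10 of the 61 member promoters (16.4%), of 9 genes, and in 7.86% of all promoters. The genes were Hspa1a, Hsph1, Dnaja1, Dnaja4, Dnajc27, Dnajc5g, Hspb3, Hspb6 and Hspb8. A match describes the letters only.

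The other HSP70 genes varied less. Hspa4, an abundant HSP110 relative, had a log2 signal of 11.41, 11.43, 11.38 and 11.48 in MMTV-PyVT/HdhQ111/Q111 tumours, against 11.58, 11.71, 11.40 and 11.75 in MMTV-PyVT/HdhQ7/Q7 tumours. Its fold change was small, -0.18 on the log2 scale, and MMTV-PyVT/HdhQ7/Q7 tumour 3 lay within the MMTV-PyVT/HdhQ111/Q111 range (95% interval -0.38 to 0.02, adjusted p 0.6411, limma). Hspa14, an HSP70 of the ribosome-associated complex, had a log2 fold change of 0.21 with an interval of -0.06 to 0.48. Intervals were -0.24 to 0.27 for the testis-rich Hspa4l, -0.12 to 0.39 for Hspa12a, -0.17 to 0.16 for the endothelial Hspa12b, -0.50 to 0.28 for Hspa2, and -0.13 to 0.31 for Hspa9, the HSP70 of mitochondria. Hsp90aa1, the inducible cytosolic HSP90, was read by a dim probe set. Its log2 signal was 5.53, 5.47, 5.44 and 5.47 in MMTV-PyVT/HdhQ111/Q111 tumours, against 5.46, 6.0, 5.03 and 5.56 in MMTV-PyVT/HdhQ7/Q7 tumours. The genotypes had nearly the same mean, and the spread lay within the MMTV-PyVT/HdhQ7/Q7 tumours (log2 fold change -0.04, 95% interval -0.44 to 0.37).

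Class A and B J proteins resemble the bacterial DnaJ most closely. Dnajb1, the stress-inducible partner of HSP70 that can disassemble huntingtin aggregates in vitro, had a log2 signal of 9.10, 9.0, 9.62 and 9.85 in MMTV-PyVT/HdhQ111/Q111 tumours, against 9.11, 9.41, 9.19 and 9.46 in MMTV-PyVT/HdhQ7/Q7 tumours. MMTV-PyVT/HdhQ111/Q111 tumours held both the lowest and the highest values, and the log2 fold change was 0.10 (95% interval -0.34 to 0.54). Dnaja1, a farnesylated cytosolic J protein, had a log2 signal of 7.26, 7.86, 8.38 and 8.36 in MMTV-PyVT/HdhQ111/Q111 tumours, against 7.69, 7.96, 7.79 and 8.09 in MMTV-PyVT/HdhQ7/Q7 tumours. For both genes the high values were in MMTV-PyVT/HdhQ111/Q111 tumours 3 and 4. These were also the tumours high in muscle markers, and the part of muscle tissue in these values was not tested. Their arrays had the highest medians as well, 7.74 and 7.68, against 7.58 to 7.63 in the others. After centring of the arrays the log2 fold change was 0.03 for Dnajb1 and 0.02 for Dnaja1. Without both tumours, the log2 fold change was -0.24 for Dnajb1 and -0.32 for Dnaja1, where that of Dnaja1 over all tumours was 0.08 (95% interval -0.46 to 0.63). As these tumours held the highest values of both genes, leaving them out had to lower it.

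Dnaja4, another cytosolic class A protein, came close to the unadjusted threshold. Its log2 signal was 7.32, 7.58, 7.58 and 7.70 in MMTV-PyVT/HdhQ111/Q111 tumours, against 7.75, 7.91, 7.58 and 7.93 in MMTV-PyVT/HdhQ7/Q7 tumours. The highest MMTV-PyVT/HdhQ111/Q111 value exceeded only MMTV-PyVT/HdhQ7/Q7 tumour 3 (log2 fold change -0.25, 95% interval -0.50 to 0.00, adjusted p 0.6301, limma). The log2 fold change was -0.32 after quantile normalization (limma, unadjusted p 0.01623, adjusted 0.5613) and after centring (0.01582, adjusted 0.5037). It was -0.17 without MMTV-PyVT/HdhQ111/Q111 tumour 1 (limma, unadjusted p 0.135). Dnaja3, the mitochondrial class A protein, had a log2 fold change of 0.12 (95% interval -0.05 to 0.30), and the interval of Dnaja2 was -0.15 to 0.28. Of the 11 class B genes, 10 had a log2 fold change of under 0.1 in size. The exception, Dnajb7, was read near the floor of the array, at 3.83, 3.75, 3.62 and 3.70 in MMTV-PyVT/HdhQ111/Q111 tumours and at 3.59, 3.54, 3.69 and 3.42 in MMTV-PyVT/HdhQ7/Q7 tumours (log2 fold change 0.16, adjusted p 0.6515, limma). Dnajb2, a J protein of neurons that sorts ubiquitinated clients to the proteasome, had an interval of -0.33 to 0.23. For Dnajb4, which resembles Dnajb1 and is induced by stress, it was -0.23 to 0.23.

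Class C J proteins share only the J domain and serve many processes. Besides Dnajc22, other J proteins of membrane traffic were measured. Dnajc6, or auxilin, recruits HSP70 to strip clathrin from vesicles. Its log2 signal was 9.15, 9.22, 9.29 and 8.80 in MMTV-PyVT/HdhQ111/Q111 tumours, against 10.27, 8.96, 8.68 and 9.17 in MMTV-PyVT/HdhQ7/Q7 tumours. MMTV-PyVT/HdhQ7/Q7 tumour 1 stood above the other 7 tumours, which ran between 8.68 and 9.29. The log2 fold change of -0.15 (95% interval -0.87 to 0.56) turned to 0.18 without that tumour. Dnajc5, the cysteine string protein of secretory vesicles, had nearly equal means and a narrow interval, -0.17 to 0.16. For Dnajc14, a J protein of the ER membrane, the interval was -0.21 to 0.07.

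Dnajc2, the J partner of Hspa14 at the ribosome, had a log2 signal of 8.91, 8.88, 9.43 and 9.42 in MMTV-PyVT/HdhQ111/Q111 tumours, against 8.81, 8.95, 8.94 and 8.73 in MMTV-PyVT/HdhQ7/Q7 tumours. MMTV-PyVT/HdhQ111/Q111 tumours 3 and 4 stood above all the rest, and tumours 1 and 2 lay within the MMTV-PyVT/HdhQ7/Q7 range (log2 fold change 0.30, 95% interval -0.03 to 0.63, adjusted p 0.6486, limma). Its partner Hspa14 followed the same tumours, at 8.65, 8.73, 9.09 and 9.0 in MMTV-PyVT/HdhQ111/Q111 tumours and 8.70, 8.70, 8.79 and 8.46 in MMTV-PyVT/HdhQ7/Q7 tumours. Dnajc9, a histone chaperone expressed in dividing cells, had 8.03, 8.30, 8.62 and 8.49 in MMTV-PyVT/HdhQ111/Q111 tumours, against 8.41, 8.09, 8.05 and 7.97 in MMTV-PyVT/HdhQ7/Q7 tumours. Here too the high values were in tumours 3 and 4, while the lowest MMTV-PyVT/HdhQ111/Q111 value lay within the MMTV-PyVT/HdhQ7/Q7 range (log2 fold change 0.23, 95% interval -0.10 to 0.56). This is again the pair of tumours high in muscle markers and in array median, and the part of muscle in these values was not tested. After centring of the arrays the log2 fold change was 0.23 for Dnajc2, 0.14 for Hspa14 and 0.16 for Dnajc9. Without both tumours it was 0.04 for Dnajc2, 0.03 for Hspa14 and 0.04 for Dnajc9. As these tumours held the highest values of each gene, leaving them out had to lower it. Dnajc12, a J protein that binds aromatic amino acid hydroxylases, had a log2 fold change of -0.20 with an interval of -0.50 to 0.11.

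Mitochondrial members, counted with the related Hscb, had a median log2 fold change of 0.06 over 8 genes, of which 6 had a higher mean in MMTV-PyVT/HdhQ111/Q111 tumours and 2 a lower one and none had an unadjusted p under 0.05. The median was 0.00 after quantile normalization and -0.01 after centring of the arrays. The lower value with the smallest p was that of Dnajc30, which associates with ATP synthase, at -0.11 (95% interval -0.28 to 0.06). The interval of Dnajc15, an inner membrane J protein, was -0.11 to 0.41, and that of Dnajc19, which acts in protein import, was -0.11 to 0.25.

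Hspa5 (BiP), the HSP70 of the ER, had a log2 signal of 12.50, 12.16, 12.57 and 12.63 in MMTV-PyVT/HdhQ111/Q111 tumours, against 12.27, 12.66, 12.51 and 12.38 in MMTV-PyVT/HdhQ7/Q7 tumours. Hsp90b1 (Grp94), the HSP90 of the ER, had 12.39, 11.88, 12.44 and 12.52 in MMTV-PyVT/HdhQ111/Q111 tumours, against 12.11, 12.42, 12.36 and 12.18 in MMTV-PyVT/HdhQ7/Q7 tumours. Both were lowest in MMTV-PyVT/HdhQ111/Q111 tumour 2, and within the MMTV-PyVT/HdhQ7/Q7 tumours both were lowest in tumour 1. The genotype means of Hspa5 were 12.46 ± 0.21 in MMTV-PyVT/HdhQ111/Q111 and 12.46 ± 0.17 in MMTV-PyVT/HdhQ7/Q7 tumours (SD, n = 4 each), with a 95% interval of -0.28 to 0.30 for the log2 fold change. That of Hsp90b1 was -0.29 to 0.38.

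Across the 8 tumours, the log2 signals of Hspa5 and Hsp90b1 were related with r = 0.96 and rho = 0.90 (exact permutation p 0.0003968 and 0.004563, adjusted over 49 pairs 0.01944 and 0.1118). Within genotypes r was 0.97, and without the 2 tumours with the most extreme Hspa5 signal it was 0.87. Hsp90b1 was also related to Hspa13, an HSP70 of microsomes (r = 0.88 and rho = 0.90, exact permutation p adjusted 0.03646 and 0.1118), and without 2 tumours r was 0.67. These were the only 2 of the 49 pairs, 28 among ER members and 21 among inducible members, with an adjusted p of r under 0.05, and no pair had one for rho. The ER members Dnajb11 and Hspa13 came next, with r = 0.84 and rho = 0.81 (adjusted exact permutation p 0.05955 and 0.2134). Tumour 2 gave the lowest MMTV-PyVT/HdhQ111/Q111 value for 6 of the 8 ER members, and tumour 1 the lowest MMTV-PyVT/HdhQ7/Q7 value for 5. The same share within a genotype was not counted over all genes. Of all genes with a probe set of their own, 14.8% and 10.8% had the lowest value of all 8 tumours in these tumours.

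RefSeq promoters were found for 46 members, and Hspa13 was not among them. Of the members searched, only Hspa5 and Hsp90b1 had an ER stress element, and their promoters are shown. Whether it bears on the correlation of their signals was not tested. The element is CCAAT and CCACG with 9 bases between them on either strand, and 0.119% of all RefSeq promoters hold it. It is in capitals, and Hsp90b1 holds it more than once (Hspa5, GRCm38.p6, chr2:34771840-34772139, plus strand, and Hsp90b1, chr10:86705395-86705694, minus strand).

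Hspa5: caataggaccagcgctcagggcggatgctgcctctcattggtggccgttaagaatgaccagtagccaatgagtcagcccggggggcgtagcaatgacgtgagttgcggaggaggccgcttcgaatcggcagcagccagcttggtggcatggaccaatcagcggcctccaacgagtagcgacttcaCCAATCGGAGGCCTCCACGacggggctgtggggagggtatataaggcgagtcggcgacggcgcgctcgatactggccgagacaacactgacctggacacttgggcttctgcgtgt

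Hsp90b1: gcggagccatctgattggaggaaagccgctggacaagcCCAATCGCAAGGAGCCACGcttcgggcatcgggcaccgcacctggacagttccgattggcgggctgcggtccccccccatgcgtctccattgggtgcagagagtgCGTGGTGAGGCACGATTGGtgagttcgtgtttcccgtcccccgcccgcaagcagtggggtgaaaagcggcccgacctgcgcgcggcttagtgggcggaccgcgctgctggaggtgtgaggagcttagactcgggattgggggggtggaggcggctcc

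Dnajb9, an ER J protein that restrains the stress sensor IRE1, had a log2 signal of 11.62, 11.30, 11.49 and 11.56 in MMTV-PyVT/HdhQ111/Q111 tumours, against 11.63, 11.32, 11.49 and 11.93 in MMTV-PyVT/HdhQ7/Q7 tumours. Its highest value was in MMTV-PyVT/HdhQ7/Q7 tumour 4 and its r with Hspa5 was -0.09. Dnajb12, a J protein of the ER membrane, spanned only 0.09 on the log2 scale over all 8 tumours, the least of the ER members. The log2 fold change was -0.05 for Dnajb11 (95% interval -0.35 to 0.25), which delivers clients to BiP, and 0.10 for Dnajc10 (95% interval -0.08 to 0.28), a disulfide reductase of the ER. Over the 8 ER members the median was 0.03, and it was 0.01 after quantile normalization and -0.04 after centring of the arrays. Among 27 genes of ER folding and the unfolded protein response, 12 had a higher mean in MMTV-PyVT/HdhQ111/Q111 tumours and 15 a lower one, none with an unadjusted p under 0.05, and the median was -0.01. This split moved with the scaling, to 9 higher and 18 lower after quantile normalization and to 3 higher and 24 lower after centring of the arrays, where the median was -0.08.

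**Figure D3:**
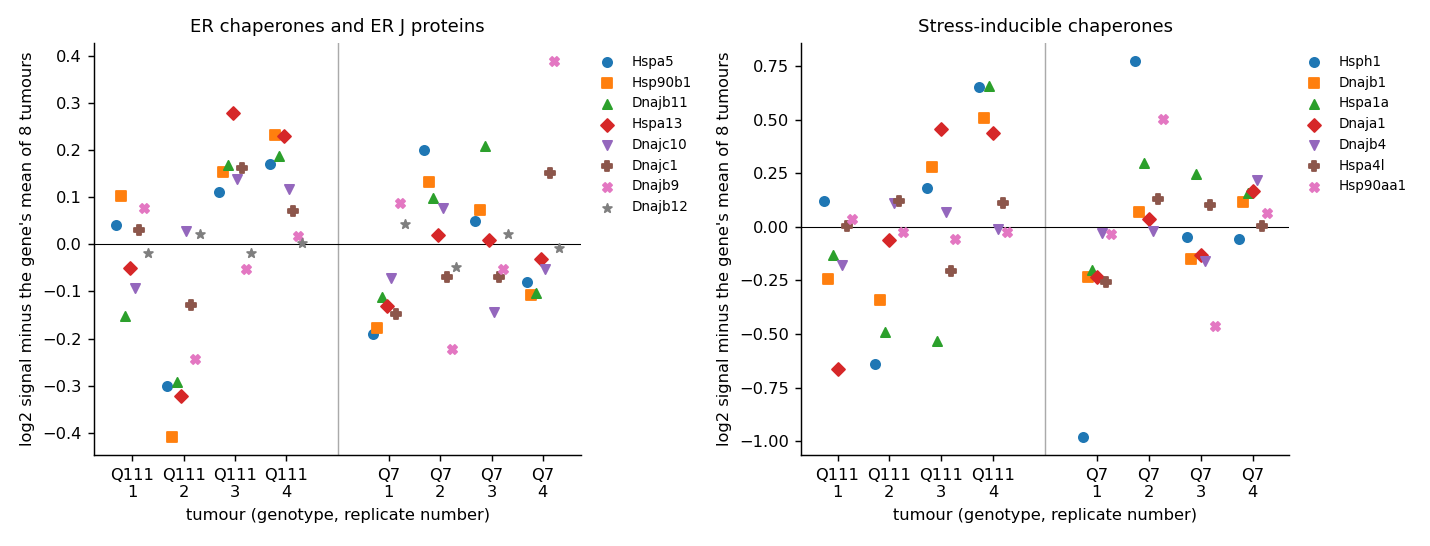
Log2 signal of the ER members (left) and the inducible members (right) in each tumour, less the mean of the gene over the 8 tumours. MMTV-PyVT/HdhQ111/Q111 tumours 1 to 4 are to the left of the grey line and MMTV-PyVT/HdhQ7/Q7 tumours to its right. Hspa5 and Hsp90b1 lie low together in MMTV-PyVT/HdhQ111/Q111 tumour 2 and MMTV-PyVT/HdhQ7/Q7 tumour 1, while Hsph1 ranges over 1.75 on the log2 scale.

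The 7 measured genes of the inducible set, Hspa1a, Hsph1, Dnajb1, Dnaja1, Dnajb4, Hspa4l and Hsp90aa1, had a median log2 fold change of 0.01, of -0.03 after quantile normalization and of -0.06 after centring. Of these, in MMTV-PyVT/HdhQ111/Q111 tumours 4 were higher and 3 lower, none with an unadjusted p under 0.05. Across tumours, 17 of the 21 pairs had a positive r, with a median of 0.28 and none at an adjusted p under 0.05. Of the 28 pairs of ER members, 19 had a positive r, with a median of 0.31. The same share over other pairs of genes was not counted, and pairs that share a gene are not independent. Dnajb1 and Dnaja1 were the closest pair (r = 0.83 and rho = 0.83, exact permutation p adjusted 0.0816 and 0.1884), and r was 0.61 without 2 tumours. Hsph1 and Dnajb1 had r = 0.70 and rho = 0.60 (adjusted exact permutation p 0.2703 and 0.5236). Among 9 heat shock factors and targets of heat shock factor 1 outside the family, none had an unadjusted p under 0.05. A higher mean in MMTV-PyVT/HdhQ111/Q111 tumours was found for 8 and a lower one for 1, with a median of 0.09. After quantile normalization or centring 7 were higher and 2 lower, and the medians were 0.06 and 0.02. In Hsbp1, which encodes a binding partner of the heat shock factor, the genotypes did not overlap, at 12.25, 12.24, 12.30 and 12.27 in MMTV-PyVT/HdhQ111/Q111 tumours and 12.20, 12.12, 12.16 and 12.20 in MMTV-PyVT/HdhQ7/Q7 tumours (adjusted p 0.7104, limma).

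The small heat shock proteins included the most variable member. Hspb6, a small heat shock protein of muscle, had the widest range of all members, 2.28 on the log2 scale. Its signal was 8.00, 8.56, 10.06 and 10.28 in MMTV-PyVT/HdhQ111/Q111 tumours, against 9.30, 8.87, 8.53 and 8.62 in MMTV-PyVT/HdhQ7/Q7 tumours. MMTV-PyVT/HdhQ111/Q111 tumours 3 and 4 stood above the rest and tumours 1 and 2 lay at the low end. The 17 muscle markers averaged 6.26, 6.20, 8.67 and 8.79 in MMTV-PyVT/HdhQ111/Q111 tumours, against 7.07, 7.38, 6.25 and 6.94 in MMTV-PyVT/HdhQ7/Q7 tumours, high in the same pair of tumours. All 17 had a higher mean in MMTV-PyVT/HdhQ111/Q111 tumours, none with an unadjusted p under 0.05, and the median log2 fold change was 0.64. The 14 adipocyte markers averaged 10.03, 7.40, 8.95 and 8.46 in MMTV-PyVT/HdhQ111/Q111 tumours, against 7.52, 8.13, 7.57 and 7.28 in MMTV-PyVT/HdhQ7/Q7 tumours, and were highest in MMTV-PyVT/HdhQ111/Q111 tumour 1, where Hspb6 was lowest. The log2 fold change of Hspb6 was 0.40, with an interval of -0.73 to 1.53 (adjusted p 0.8563, limma). It was 0.04 without MMTV-PyVT/HdhQ111/Q111 tumour 4, 0.12 without tumour 3 and -0.55 without both. Those tumours held the highest Hspb6 values, so leaving them out had to lower the log2 fold change. The part of muscle in these values was not tested.

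Hspb7, a small heat shock protein of heart and muscle, had 5.72, 5.60, 6.37 and 6.30 in MMTV-PyVT/HdhQ111/Q111 tumours, against 5.87, 6.49, 5.79 and 5.94 in MMTV-PyVT/HdhQ7/Q7 tumours. Its high values were in MMTV-PyVT/HdhQ111/Q111 tumours 3 and 4 and in MMTV-PyVT/HdhQ7/Q7 tumour 2, each the tumours with the highest muscle mean of their genotype. The log2 fold change was -0.03 (95% interval -0.53 to 0.47). Hspb8, which works with Bag3 in the removal of misfolded proteins, had 8.98, 8.53, 8.78 and 8.89 in MMTV-PyVT/HdhQ111/Q111 tumours, against 8.36, 8.80, 8.77 and 8.45 in MMTV-PyVT/HdhQ7/Q7 tumours, with wide overlap and a log2 fold change of 0.20 (95% interval -0.10 to 0.51). Hspb2, another muscle member, had 6.63, 6.89, 6.65 and 6.81 in MMTV-PyVT/HdhQ111/Q111 tumours, against 6.81, 6.68, 6.88 and 6.88 in MMTV-PyVT/HdhQ7/Q7 tumours. It was not highest in tumours 3 and 4 with polyQ-huntingtin (95% interval -0.26 to 0.13). In Hspb3, also of muscle, those 2 tumours lay below all MMTV-PyVT/HdhQ7/Q7 tumours. The interval was -0.18 to 0.16 for Hspb11, a subunit of the intraflagellar transport complex. Hspbap1 had a log2 fold change of 0.21 (95% interval -0.10 to 0.52).

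**Figure D4:**
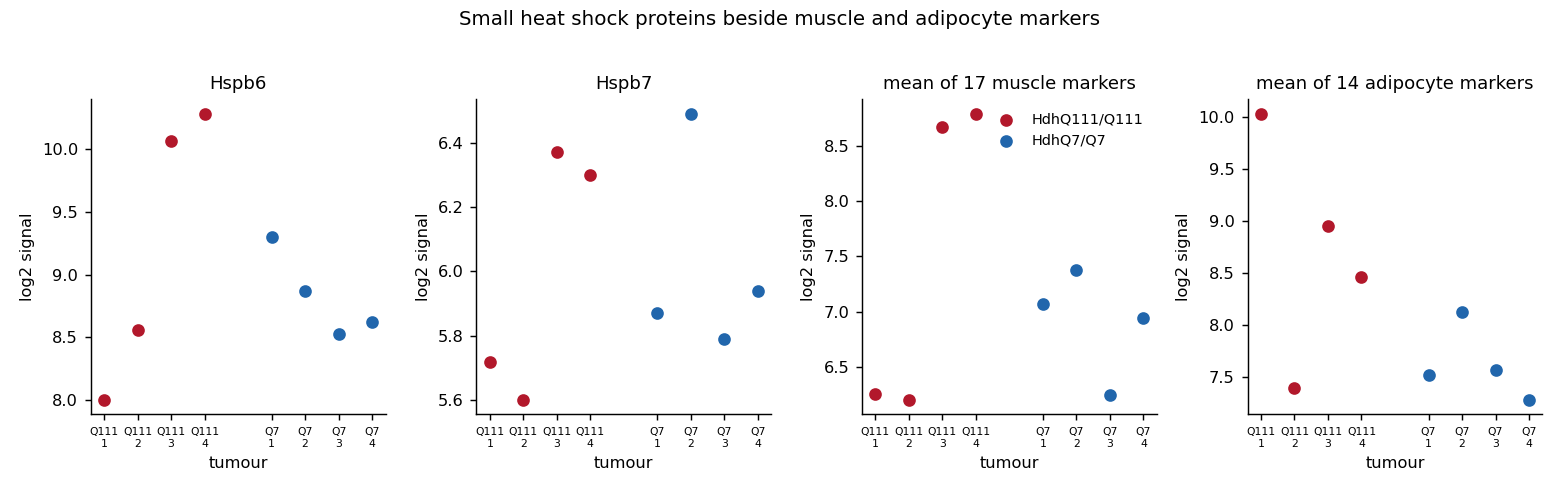
Log2 signal of Hspb6 and Hspb7 and the mean log2 signal of 17 muscle and 14 adipocyte markers in each of the 4 MMTV-PyVT/HdhQ111/Q111 (red, left) and 4 MMTV-PyVT/HdhQ7/Q7 (blue, right) tumours. The vertical scale differs between panels. Hspb6 and the muscle mean are both highest in MMTV-PyVT/HdhQ111/Q111 tumours 3 and 4, and the adipocyte mean is highest in MMTV-PyVT/HdhQ111/Q111 tumour 1.

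Members known to modify polyglutamine aggregation were examined to ask whether tumours with polyQ-huntingtin expressed them at another level. Of 15 such genes, 11 were measured, Hspa1a, Hspa4, Hsph1, Dnaja1, Dnajb1, Dnajb2, Dnajb8, Dnajc5, Dnajc7, Hspb7 and Hspb8. Their log2 fold changes ran between -0.25 and 0.20, 5 had a higher mean in MMTV-PyVT/HdhQ111/Q111 tumours and 6 a lower one, and none had an unadjusted p under 0.05. After quantile normalization or centring 4 were higher and 7 lower. For Dnajb8, which suppresses polyglutamine aggregation in cells and is testis-rich, the probe set was dim and the interval was -0.28 to 0.29. For Dnajc7, a cytosolic J protein with tetratricopeptide repeats, it was -0.22 to 0.14. Intervals of Hspa1a, Hsph1 and Dnaja1 reach beyond a 1.5-fold change in at least 1 direction.

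Proteins that work with the chaperones showed small differences. Of 32 co-chaperones outside the family, 26 had a higher mean in MMTV-PyVT/HdhQ111/Q111 tumours and 6 a lower one, with a median log2 fold change of 0.06. Over the whole array, 13165 of 23332 probe sets had a higher mean in that genotype. Of the co-chaperones, 22 were higher and 10 lower after quantile normalization, and 16 were higher and 16 lower after centring of the arrays. Only Sgta, which guides tail-anchored membrane proteins, had an unadjusted p under 0.05. Its log2 signal was 10.82, 10.87, 10.84 and 10.94 in MMTV-PyVT/HdhQ111/Q111 tumours, against 10.76, 10.53, 10.71 and 10.78 in MMTV-PyVT/HdhQ7/Q7 tumours, without overlap (log2 fold change 0.17, adjusted p 0.6301, limma). Of 12 subunits of the chaperonin TRiC and of prefoldin, which fold actin and tubulin, 11 were higher and 1 lower, with a median of 0.08. After quantile normalization 10 were higher and 2 lower, and after centring 7 were higher and 5 lower. Pfdn1 had an unadjusted p under 0.05, with 9.19, 9.25, 9.36 and 9.26 in MMTV-PyVT/HdhQ111/Q111 tumours, against 9.19, 8.87, 9.06 and 9.01 in MMTV-PyVT/HdhQ7/Q7 tumours (log2 fold change 0.24, adjusted p 0.5919, limma).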

How the data were processed

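RNA from 4 MMTV-PyVT/HdhQ111/Q111 and 4 MMTV-PyVT/HdhQ7/Q7 snap-frozen mammary tumours was hybridised to Affymetrix Mouse Exon 1.0 ST arrays. The log2 signal per probe set was used as deposited by the authors. Its normalization was not given in the sources at hand. For their gene analysis, the authors' methods name quantile normalization, correction with antigenomic background probes and FAST DB annotation. Array medians were 7.58 to 7.74. Symbols came from the platform annotation, and promoters from RefSeq (GRCm38.p6).

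Genotypes were compared with limma 3.58.1 (R 4.3.3) over all 23332 probe sets, two-sided, with Benjamini-Hochberg adjustment, and single values with exact permutation tests. The thresholds of 1.5-fold and p 0.05 are those of the methods. Steps were tested on simulated data. As alternatives, array weights, the t-test of the methods, quantile normalization, a robust fit with a variance trend and centring on array medians were run, as were leaving out the dimmest 40% of probe sets or each tumour in turn, a replicate block, the mean of a gene's probe sets and a fold threshold of 2. Leaving out both tumours high in muscle markers was added after the data were seen. Members, gene lists and tests were chosen with earlier results of these data known. Named genes were those past a threshold or without overlap, the 4 of each subfamily with the smallest p, the inducible, ER and polyglutamine lists, and those with the widest range, the highest or lowest signal or a tumour that stood apart. Members and genes outside this rule were named after their values were seen.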

Additional observations from a re-analysis of the deposited data

Results flagged for a closer look

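Within each genotype, a tumour that lay apart from the other 3 was looked for in every member, in 116 sets of 4 values, by the gap to the nearest value over the whole range. Chance flags about 1 in 20 such sets, and 2 were found. In Dnajc22, MMTV-PyVT/HdhQ111/Q111 tumour 4 was the highest of its genotype (7.28, against 6.50 to 6.59 in tumours 1 to 3), with a gap of 0.879 of the range. In Dnajc5b, a J protein related to Dnajc5, MMTV-PyVT/HdhQ111/Q111 tumour 3 was the lowest (4.95, against 5.15 to 5.19), with a gap of 0.831 of the range.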

How the results depend on the processing

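Dnajc22 passed both thresholds under every alternative except a fold threshold of 2, which left 0 members, and no alternative gave any member an adjusted p under 0.05. The count of members with an unadjusted p under 0.05, with the share over all probe sets in brackets, was 2 with the methods' t-test (7.32%), the variance trend (7.69%), array weights (8.43%), a replicate block (7.04%) and without the dimmest 40% of probe sets (8.22%), 3 after quantile normalization (8.04%) and without both tumours high in muscle markers (6.25%), 4 after centring (9.09%), and 1 to 4 without single tumours (6% to 9.07%). Members without overlap numbered 2 after quantile normalization (4.7%) and after centring (5.58%), Dnajc14 and Hspb3 in both, 0 of 44 without the dimmest 40% (4.38%), 8 without both tumours high in muscle markers (15.6%), and 1 to 5 without single tumours (6.4% to 9.72%). The median log2 fold change of the members was -0.060 after centring, -0.053 without both of those tumours and -0.018 to 0.040 without single tumours.

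For 34 genes, 523 of 573 values under alternatives kept the direction and the side of the thresholds and 50 turned direction, none of them past the thresholds. After centring, the log2 fold change turned to -0.06 for Hspa5, -0.03 for Hsp90b1, -0.00 for Hspa13 and -0.06 for Hspa4l, after quantile normalization to -0.01 for Hspa5 and -0.05 for Hspa4l, and with array weights to 0.01 for Dnajb4. Without both tumours high in muscle markers it turned to -0.55 for Hspb6, -0.18 for Hsph1, -0.32 for Dnaja1, -0.24 for Dnajb1, -0.13 for Hspa5, -0.13 for Hsp90b1 and -0.15 for Hspa13. Leaving out single tumours gave -0.35 to 0.18 for Dnajc6, -0.14 to 0.44 for Hsph1, -0.05 to 0.32 for Dnaja1, -0.05 to 0.23 for Dnajb1, -0.05 to 0.11 for Hspa5, -0.03 to 0.19 for Hsp90b1, -0.20 to 0.13 for Hsp90aa1, -0.19 to 0.01 for Dnajb9, -0.15 to 0.03 for Dnajb2, -0.01 to 0.19 for Hspa13, -0.12 to 0.04 for Dnajb11, -0.15 to 0.13 for Hspb7, -0.02 to 0.01 for Dnajb12, -0.08 to 0.02 for Dnajc7, -0.03 to 0.05 for Dnajc5, -0.06 to 0.07 for Dnajb4 and -0.07 to 0.08 for Hspa4l. The cause was not tested.

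Replicate numbers were not taken to pair the tumours, and the labels do not say what they stand for. Deviations of same-numbered tumours had correlations of -0.19 to 0.03, against -0.13 to 0.15 for tumours with different numbers. A replicate block gave 2 members with an unadjusted p under 0.05 (Dnaja4 and Dnajc22) in place of 1 and changed no other count. With 4 arrays a genotype, differences under the reach of the 95% intervals could not be seen.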

Other observations

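Probe sets shared with another symbol were kept out of the comparison. Of 5 such probe sets, the one of Dnajc8 and Ptafr had an unadjusted p under 0.05. Its log2 signal was 8.46, 8.28, 8.21 and 7.89 in MMTV-PyVT/HdhQ111/Q111 tumours, against 8.49, 8.57, 8.94 and 8.31 in MMTV-PyVT/HdhQ7/Q7 tumours (log2 fold change -0.37, adjusted p 0.6301, limma). Which of the genes gave this signal cannot be told apart, since the first encodes a spliceosome-associated J protein and the second the receptor of platelet-activating factor. The 95% intervals of the log2 fold change were -0.21 to 0.23 for Dnajc3 with Ccdc58, -0.09 to 0.23 for Hspa1l with Hspa1a, -0.16 to 0.20 for Gng10 with Dnajc25, -0.21 to 0.29 for Qrfprl with Dnajc2, and -0.15 to 0.33 for the dimmer probe set of Dnajc2.

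Single tumours held the extreme value of many members. MMTV-PyVT/HdhQ111/Q111 tumour 3 gave the highest of the 8 values for 16 members (27.6%), as it did for 20% of all genes with a probe set of their own. MMTV-PyVT/HdhQ111/Q111 tumours 1 and 2 gave the lowest for 12 members each (20.7%), where the shares of all genes were 10.3% and 14.8%. Among 22 immediate early genes, which respond within minutes to handling and other stimuli, 6 had a higher mean in MMTV-PyVT/HdhQ111/Q111 tumours and 16 a lower one, with a median log2 fold change of -0.02. After quantile normalization or centring 3 were higher and 19 lower, and the medians were -0.07 and -0.09. The mean of the set was 8.70 to 8.93 in MMTV-PyVT/HdhQ111/Q111 and 8.61 to 9.03 in MMTV-PyVT/HdhQ7/Q7 tumours. Of the 22 genes, Nr4a1 had an unadjusted p under 0.05 (log2 fold change -0.40, adjusted p 0.6301, limma).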
